A study of Bos taurus with 9 samples.

Results

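The AP-1 and immediate early genes described here are FOS, FOSB, FOSL1, FOSL2, JUN, JUNB, JUND, ATF3, EGR1 and IER3. They were chosen by gene symbol, and all 10 were found among the 17162 genes of the expression table. RNA was sequenced from cultured bovine endometrial cells, which the labels call primary epithelial cells of wild type (WT), in 9 libraries that fall into 3 groups of 3 replicates. Control cells (CON) received no treatment, GA cells received 1 nM estradiol (E2) and 100 nM progesterone (P4), and GB cells received the same hormones and then 100 ng/mL interferon tau (IFNT), the type I interferon with which the ruminant conceptus signals its presence to the uterus. The cells came from uteri of Holstein cows collected at an abattoir, had been passaged several times and grew in medium with fetal bovine serum. Hormones were given for 12 h and IFNT for a further 12 h, and since no separate collection time is stated for the other groups, culture time and IFNT cannot be told apart in the comparisons with GB.

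AP-1 is a family of dimeric transcription factors. A JUN protein (JUN, JUNB or JUND) pairs through its leucine zipper with a FOS protein (FOS, FOSB, FOSL1 or FOSL2), with another JUN protein or with an ATF protein such as ATF3, and the pair binds short sites in promoters and enhancers. FOS, JUN and EGR1 are the textbook immediate early genes, transcribed within minutes of a growth factor, hormone or stress signal without new protein synthesis and then switched off again, whereas JUND and FOSL1 are transcripts that can persist in growing cells. In the uterus estradiol is known to induce FOS rapidly.

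Levels are in FPKM as the authors computed it, that is, fragments scaled by exon length and by the mapped reads of the library, so that different genes can be compared within a library. FPKM of a library summed to between 1395622 and 1442723. The table gives no read counts, and the steps between low values did not give the depth of each library. Differences were tested with limma on log2(FPKM + 0.5) over the 12578 genes that reached an average of 0.5 FPKM, and log2FC below is on that scale, on which changes of weakly expressed genes come out too small. A gene is said to have risen or fallen when its Benjamini-Hochberg adjusted p over all of these genes was under 0.05, and it is called a DEG when |log2FC| was also above 1. Nothing in the sources used here says that the replicates came from separate animals, so the p-values measure the spread between these libraries. As a check of the groups, all 11 interferon response genes tested were DEGs higher in GB in both comparisons, and their summed FPKM was 193.3 to 232.7 in the CON and GA libraries and 10557 to 10578 in the GB libraries.

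The labelled cell type was set against marker genes. None of the 10 epithelial markers reached an average of 0.5 FPKM, their highest value in any library was 0.70, and 8 of them, KRT7, KRT8, CDH1, CLDN3, CLDN4, CLDN7, ESRP1 and GRHL2, were at 0 in some library. All 10 stromal fibroblast markers, among them VIM, COL1A1, DCN, PDGFRB and HAND2, were at 59.6 FPKM or more in every library. The study stained its cells for cytokeratin and describes them as positive, a protein measurement that was not analysed here, while the keratin transcript KRT18 was at 0.16 to 0.67 FPKM. The RNA markers thus go against the epithelial label, and the cells are called BEND here only as the name that the study gives them. The summed FPKM of the stromal markers was 16860 to 17451 in the CON and GA libraries and 15293 to 15410 in the GB libraries. The immune markers summed to 35.1 to 45.4 FPKM. Of these, CD14 (16.7 to 23.3 FPKM), LAPTM5 (11.6 to 18.3), CD68 (3.13 to 4.43) and CSF1R (0.24 to 0.60) were above 0 in every library. AIF1, TYROBP and CD79A were at 0 in some library. The endothelial markers summed to 1.65 to 3.44 FPKM, with CDH5 at 0.85 to 2.52 and with KDR and CLDN5 at 0 in some library. CDH5 rose in GB vs. GA, and LAPTM5 fell in GB vs. CON. The part of these shifts in the differences described below was not tested, and in bulk RNA fewer cells of a type cannot be told apart from less RNA per cell.

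All 10 genes were expressed above the filter, at mean levels in CON from 1.65 to 661 FPKM. In CON the order of the mean FPKM, from the highest, was IER3, FOSL1, JUND, JUNB, FOSL2, JUN, FOS, ATF3, EGR1 and FOSB. IER3, an early response gene whose product acts on cell survival, stood at 661 ± 105 FPKM (SD, n = 3) in CON, above 97.1% of the tested genes. FOSL1 (255 ± 35.7 FPKM) and JUND (250.04 ± 9.43 FPKM) overlapped between libraries and could not be ranked. JUN and FOS overlapped as well, as did ATF3 and EGR1, while the other neighbors in the order were apart in all 3 libraries. FOSB, which encodes a FOS protein best known from neurons, was far below the rest at 1.65 ± 0.442 FPKM (SD, n = 3). In GA, JUNB already stood above JUND and EGR1 above ATF3, and only JUN and FOS overlapped. In GB the order was IER3, FOSL1, JUNB, JUND, FOSL2, JUN, ATF3, FOS, EGR1 and FOSB, with no overlap between any neighbors, so that against the order of CON, JUND stood below JUNB and ATF3 above FOS.

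**Figure D1:**
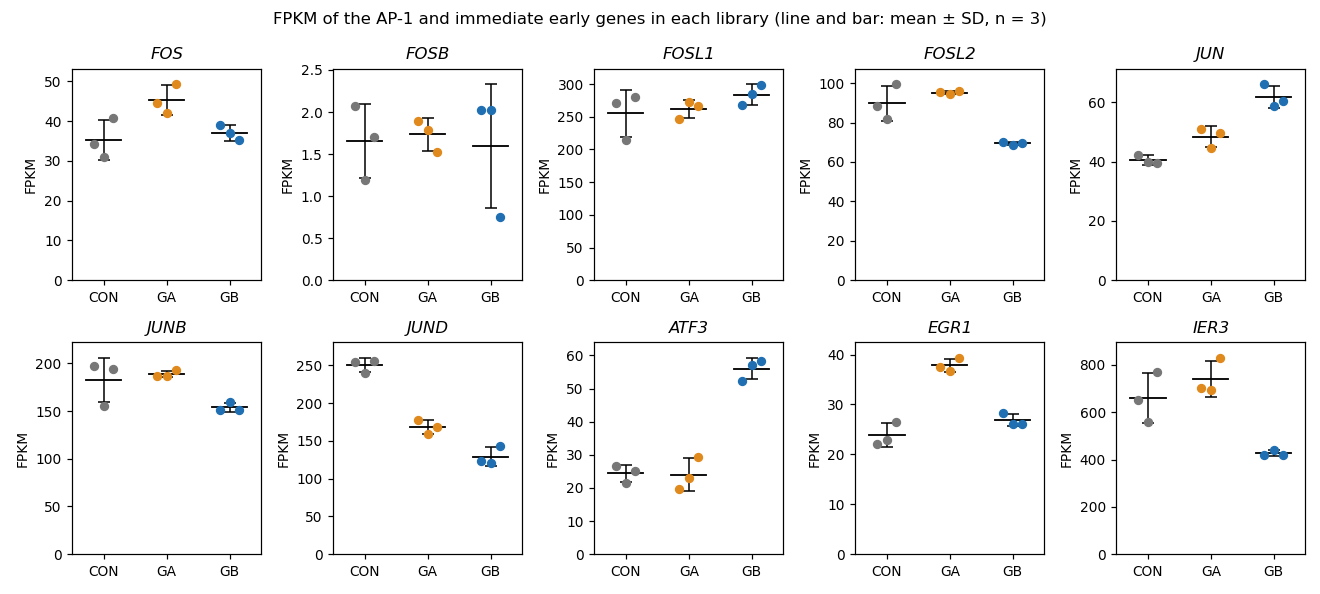
FPKM of each of the 10 genes (y axes, linear and starting at 0) in the 3 libraries of CON, GA and GB (x axis); points are libraries, and lines with bars are the mean ± SD of 3 libraries. JUND steps down from CON to GA to GB, JUN is highest in GB, ATF3 is high in GB alone, EGR1 is highest in GA, and IER3 and FOSL2 are lowest in GB.

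The moderated F test of limma for any difference among the 3 groups passed for 8 of the 10 genes, all but FOSB and FOSL1, against 34.6% of all genes tested. FOS (adjusted p = 0.0431, limma) and JUNB (adjusted p = 0.0416, limma) were near the threshold of this test. The number that passed it was 6 to 8 over the alternatives with 3 groups, and 6 without any single GA or GB library. With IFNT added to hormones (GB vs. GA) 7 of the 10 had an adjusted p under 0.05, 2 higher (JUN and ATF3) and 5 lower (FOSL2, JUNB, JUND, EGR1 and IER3), against 29.0% of all genes tested, 9.87% higher and 19.2% lower. In GB vs. CON 5 of the 10 passed, 2 higher (JUN and ATF3) and 3 lower (FOSL2, JUND and IER3), against 33.5% of all genes, 16.2% higher and 17.3% lower. With hormones alone (GA vs. CON) 2 passed, EGR1 higher and JUND lower, against 0.453% of all genes, 0.246% higher and 0.207% lower. ATF3 was the only DEG of the 10. It was one in GB vs. GA, where 3.64% of all genes were, and in GB vs. CON, where 4.01% were, while GA vs. CON, with 0.0716% of all genes, had none of the 10. With library GC content as a covariate ATF3 was no DEG in GB vs. CON, while JUND and IER3 were DEGs, as described further on. JUND was also a DEG there with quantile normalization and without GB replicate 3. The libraries of the groups did not overlap for 8 of the 10 genes in GB vs. GA (46.8% of all genes), for 5 in GB vs. CON (46.1%) and for 4 in GA vs. CON (24.7%). The comparisons share libraries, so a gene's values in 1 of them are not independent of those in another.

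**Figure D2:**
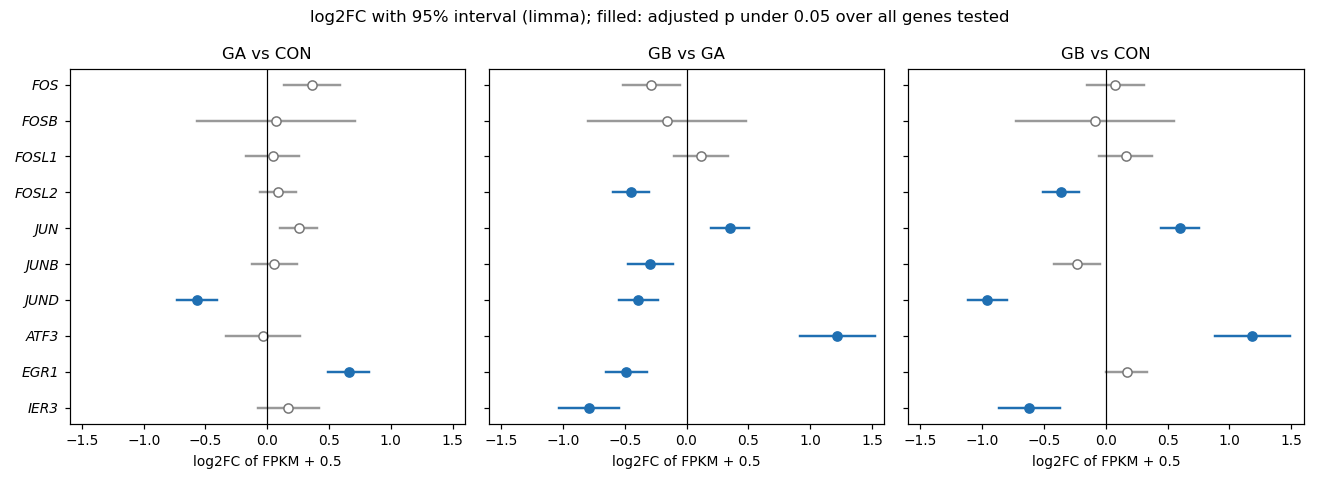
log2FC on the log2(FPKM + 0.5) scale (x axes) of the 10 genes in GA vs. CON, GB vs. GA and GB vs. CON; points are limma estimates from 3 libraries a group, lines are 95% confidence intervals, and filled points have an adjusted p under 0.05 over all genes tested. ATF3 is the only gene beyond 1, and EGR1 and JUND are the only filled points in GA vs. CON.

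Of the JUN genes, JUND showed the largest change. JUND encodes the JUN protein that is present in most cells at rest and that can hold back proliferation. It was at 254.9, 239.2 and 256.1 FPKM in the CON libraries, at 177.0, 159.6 and 168.7 in GA and at 122.7, 120.3 and 143.3 in GB. Every CON library lay above every GA library, and every GA library above every GB library. The log2FC was −0.57 in GA vs. CON (SE 0.071, adjusted p = 0.0154, limma), −0.39 in GB vs. GA (SE 0.071, adjusted p = 0.00329, limma) and −0.96 in GB vs. CON (SE 0.071, adjusted p = 9.38e-06, limma), which is 1.94-fold lower. JUND ranked above 92.9% of the tested genes in CON and above 86.3% in GB. It was a DEG in GB vs. CON with library GC content as a covariate (log2FC −1.12, adjusted p = 0.000974, limma). The same held with quantile normalization (−1.006, adjusted p = 3.18e-06, limma) and without GB replicate 3 (−1.04, adjusted p = 4.76e-06, limma). With the replicate block added to the covariate the log2FC was −0.97 (adjusted p = 0.0257, limma). The fall with hormones alone depended on the fit, with an adjusted p of 0.0503 to 0.0749 (limma) without CON replicate 1 or without any single GA library and of 0.0629 with no trend of the variance. It also did not pass with library GC content as a covariate, with or without the replicate block, as described further on.

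JUN itself, the first described partner of FOS and a target of the JNK kinases, moved the other way. Its libraries were at 42.4, 39.8 and 39.4 FPKM in CON, at 51.1, 44.5 and 49.6 in GA and at 66.1, 58.9 and 60.5 in GB. The 3 groups did not overlap. JUN rose by a log2FC of 0.35 in GB vs. GA (SE 0.068, adjusted p = 0.00457, limma) and of 0.60 in GB vs. CON (SE 0.068, adjusted p = 0.000162, limma), or 1.52-fold. In GA vs. CON the log2FC was 0.25 (SE 0.068), which did not pass (adjusted p = 0.115, limma).

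JUNB, whose product often opposes JUN in cell growth, was at 197.5, 155.6 and 193.7 FPKM in CON, at 186.2, 187.0 and 192.6 in GA and at 150.8, 159.6 and 151.5 in GB. It fell in GB vs. GA (log2FC −0.29, SE 0.082, adjusted p = 0.0253, limma), with no overlap of the libraries. In GB vs. CON the second CON library lay within the range of GB, and the log2FC of −0.23 just missed the threshold (adjusted p = 0.053, limma), which it passed without that library (log2FC −0.34, adjusted p = 0.000449, limma). It passed under 6 of the 21 alternatives in all, with a log2FC of −0.56 (adjusted p = 0.00874, limma) with library GC content as a covariate and of −0.68 (adjusted p = 0.0252, limma) with the replicate block added to it. The GB vs. GA call was lost without any single GA library, without GB replicate 1 or GB replicate 3, and with median-of-ratios factors, with adjusted p up to 0.0775 (limma).

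Because the JUN genes moved in opposite directions, their proportions within a library changed, a quantity that a scaling factor for the whole library cannot alter. Library GC content set CON apart from GA and GB, as described further on. How far the proportions depend on it was not tested. FPKM of JUND divided by that of JUN was 6.18 ± 0.280 in CON (SD, n = 3), 3.48 ± 0.0947 in GA, and 2.09 ± 0.259 for GB. The 3 groups were apart, with values of 6.02, 6.02 and 6.50 in CON, 3.46, 3.59 and 3.40 in GA, and 1.86, 2.04 and 2.37 in GB. The 2-sided exact permutation test gave p = 0.1 for each pair of groups, the smallest value that 3 libraries against 3 can give. JUN made up 8.59% ± 0.550 of the summed FPKM of the 3 JUN genes in CON, 11.9% ± 0.494 in GA and 18.0% ± 1.32 in GB, while JUND made up 53.0% ± 1.84, 41.5% ± 1.04 and 37.3% ± 2.62. The share of JUNB was 38.4% ± 2.28 in CON, 46.5% ± 1.46 in GA and 44.7% ± 2.26 in GB. The sum itself was 473 ± 33.2 FPKM in CON, 405.5 ± 12.5 in GA and 345 ± 9.35 in GB, with no overlap between groups.

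**Figure D3:**
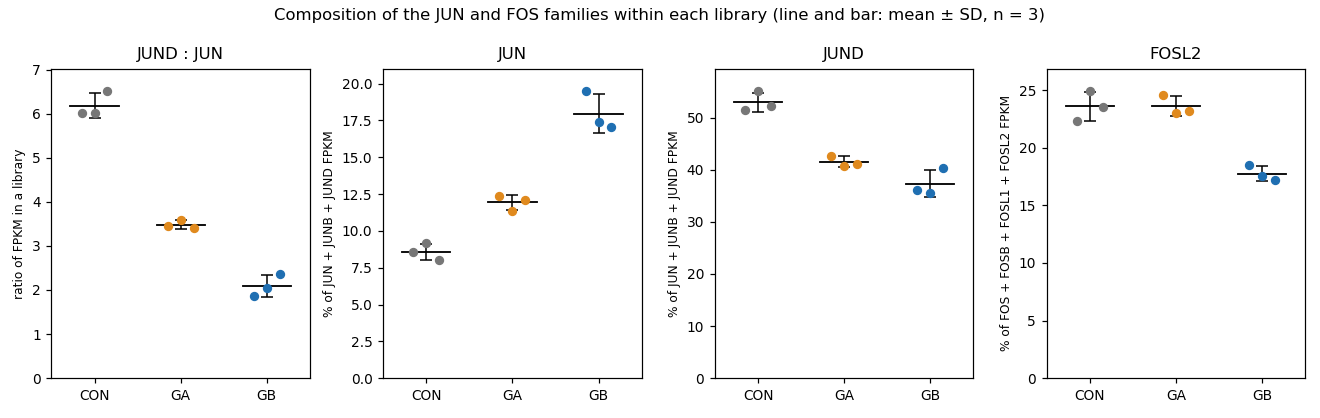
FPKM ratio of JUND to JUN in each library, the shares of JUN and of JUND in the summed FPKM of the JUN genes, and the share of FOSL2 in that of the FOS genes (y axes, starting at 0) in CON, GA and GB; points are libraries, and lines with bars are the mean ± SD of 3 libraries. The ratio of JUND to JUN goes from 6.18 in CON to 3.48 in GA and 2.09 in GB, and FOSL2 makes up a smaller share in GB than in the other groups.

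Among the FOS genes, FOSL2 changed most clearly. Its product, Fra-2, is a FOS protein without the strong activation domain of FOS. FOSL2 was at 88.3, 81.7 and 99.4 FPKM in CON, at 95.4, 94.4 and 95.9 in GA and at 70.1, 68.8 and 69.7 in GB. All GB libraries lay below all others. It fell by a log2FC of 0.45 in GB vs. GA (SE 0.065, adjusted p = 0.000864, limma) and by 0.36 in GB vs. CON (SE 0.065, adjusted p = 0.00255, limma). The latter was −0.55 (adjusted p = 0.0137, limma) with library GC content as a covariate, and −0.48 (adjusted p = 0.15, limma) with the replicate block added, which did not pass. In GA vs. CON the log2FC was 0.089, with a 95% confidence interval of −0.058 to 0.235.

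FOS was at 34.2, 30.9 and 40.9 FPKM in CON, at 44.6, 42.0 and 49.3 in GA and at 39.0, 37.0 and 35.2 in GB. The GA libraries lay above all others, and the CON and GB libraries overlapped. The F test among the 3 groups passed (adjusted p = 0.0431, limma), but no pair of groups did, with a log2FC of 0.36 in GA vs. CON (SE 0.10, adjusted p = 0.127, limma), −0.28 in GB vs. GA (SE 0.10, adjusted p = 0.0638, limma) and 0.077 in GB vs. CON (SE 0.10, adjusted p = 0.597, limma). The adjusted p of GB vs. GA was 0.0229 to 0.195 over the 21 alternatives tried, 5 of which put it under 0.05.

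FOSL1, which encodes Fra-1 and was the most abundant FOS gene, was at 270.8, 214.5 and 280.7 FPKM in CON, at 246.4, 272.5 and 266.6 in GA and at 267.9, 284.7 and 299.3 in GB. The groups overlapped in every comparison. The largest log2FC was 0.16 in GB vs. CON (95% confidence interval −0.055 to 0.38, adjusted p = 0.227, limma). FOSB was at 2.07, 1.19 and 1.70 FPKM in CON, at 1.89, 1.79 and 1.52 in GA and at 2.02, 2.02 and 0.75 in GB, and the groups overlapped. Its intervals were the widest of the 10 genes, −0.80 to 0.48 for the log2FC in GB vs. GA, which contain changes of the size seen for JUN in that comparison.

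The summed FPKM of the FOS genes was 382 ± 48.6 in CON (SD, n = 3), 404 ± 13.7 in GA, and 392 ± 13.0 for GB, with overlap. FOSL1 made up 66.75% ± 1.6 of this sum in CON, 64.8% ± 1.48 in GA and 72.4% ± 1.62 in GB, whereas FOSL2 made up 23.6% ± 1.27, 23.6% ± 0.863 and 17.7% ± 0.666. The GB libraries were apart from both other groups in each of these shares (exact permutation p = 0.1 each, 2-sided, the smallest possible).

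ATF3 had the largest change of the 10 genes. It encodes a stress-induced partner of JUN proteins that often represses its targets, and it is known to respond to interferons and to amino acid and endoplasmic reticulum stress. ATF3 was at 26.5, 21.5 and 25.2 FPKM in CON, at 19.7, 23.0 and 29.4 in GA and at 52.4, 57.2 and 58.4 in GB. All GB libraries were above all others, while CON and GA overlapped. It rose by a log2FC of 1.22 in GB vs. GA (SE 0.13, adjusted p = 0.000165, limma) and of 1.19 in GB vs. CON (SE 0.13, adjusted p = 0.000168, limma), or 2.33-fold and 2.28-fold. In GB vs. CON the log2FC was 0.68 (adjusted p = 0.0474, limma) with library GC content as a covariate, which is under the DEG threshold, and 0.71 (adjusted p = 0.199, limma) with the replicate block added, which did not pass. The log2FC in GA vs. CON was −0.034, with a 95% confidence interval of −0.34 to 0.27. Per JUN transcript, ATF3 FPKM was 0.602 ± 0.0532 in CON, 0.498 ± 0.105 in GA and 0.910 ± 0.102 in GB, with all GB libraries above the others.

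EGR1, a zinc finger factor and textbook target of the ERK pathway, was highest in GA, the cells given hormones without IFNT. It was at 22.1, 23.0 and 26.5 FPKM in CON, at 37.6, 36.7 and 39.3 in GA and at 28.2, 26.2 and 26.1 in GB. The GA libraries stood above all others, and CON and GB overlapped. EGR1 rose in GA vs. CON by a log2FC of 0.66 (SE 0.073, adjusted p = 0.0123, limma), or 1.58-fold, and fell by 0.49 in GB vs. GA (SE 0.073, adjusted p = 0.00109, limma). The log2FC of GB vs. CON was 0.17 (SE 0.073, adjusted p = 0.109, limma). The GA vs. CON call of EGR1 was lost without CON replicate 1, GA replicate 1 or GA replicate 3, with an adjusted p of 0.0503 to 0.0549 (limma). Library GC content as a covariate, with or without the replicate block, ended this call too, as described below.

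IER3, the most abundant of the 10, was at 653, 561 and 770 FPKM in CON, at 701, 692 and 828 in GA and at 421, 441 and 419 in GB. All GB libraries lay below all others. It fell by a log2FC of 0.79 in GB vs. GA (SE 0.11, adjusted p = 0.000688, limma) and by 0.62 in GB vs. CON (SE 0.11, adjusted p = 0.0023, limma), that is 1.73-fold and 1.54-fold lower. In GB vs. CON the log2FC was −1.04 (adjusted p = 0.0025, limma) with library GC content as a covariate, and −0.93 (adjusted p = 0.0603, limma) with the replicate block added, which did not pass. In GA vs. CON the log2FC was 0.17 (95% confidence interval −0.075 to 0.42). The 3 GB libraries were close to each other, with a coefficient of variation of 2.79%, against 15.9% in CON.

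The reads of all 3 CON libraries had a higher GC content than those of every GA and GB library in the study's sequencing table, so GC content and the step from CON cannot be told apart. With it as a covariate, JUND had a log2FC of −0.72 in GA vs. CON (adjusted p = 0.217, limma) and EGR1 of 0.60 (adjusted p = 0.421, limma), and neither passed. Of the 12578 genes tested, 0 passed in GA vs. CON under this covariate, with or without the replicate block. The share of all genes that passed in GB vs. CON went from 33.5% to 11.7% under this covariate, and to 4.09% with the replicate block added. For GB vs. GA it was 32.4%, and 8 of the 10 genes passed there, FOS in addition to the 7 above.

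Genes with a similar course over the 9 libraries were sought among all genes tested, for the 8 genes that passed the F test. Those with the highest Pearson's r to JUND were STARD13 (0.985), LOC112441463 (0.974) and NR4A1 (0.973), the last an immediate early nuclear receptor. For JUN they were TGM2 (0.987), SCAF11 (0.982) and FOCAD (0.978), and for ATF3 MRPL44 (0.990), LOC524576 (0.986) and GRAMD1C (0.985). For EGR1 they were OTULINL, WDR47 and GDE1 (r of 0.961 to 0.967), for IER3 MAGED1, FAM21A and ZDHHC20 (0.987 or above), for FOSL2 SHTN1, QKI and PLEKHM1, for JUNB TCF7L1, KCTD9 and SGCE, and for FOS GATC (0.994), ZFP69 and TEDC2. These values are descriptions over 9 libraries that share groups and library composition, picked as the highest of all genes tested.

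The wider immediate early response was followed in 35 tested genes of a list of 38. Of these, 19 passed in GB vs. CON, 10 higher and 9 lower, which is 54.3% against 33.5% of all genes tested, with a median log2FC of −0.031 against −0.016. In GB vs. GA 14 passed, 7 higher and 7 lower, which is 40% against 29.0%, with a median of −0.027 against −0.075. None was a DEG. The largest rises in GB vs. CON were those of ZFP36 (log2FC 0.89), an RNA-binding protein that destabilizes cytokine mRNAs, of the growth regulator MYC (0.71) and of the orphan nuclear receptor NR4A2 (0.61). MYC was at 72.2, 60.5 and 73.2 FPKM in CON, 76.1, 78.3 and 75.7 in GA and 113.2, 107.1 and 117.2 in GB, and NR4A1, of the same family as NR4A2, fell (log2FC −0.51 against CON, −0.29 against GA). The largest falls were those of KLF2 (−0.96), EGR3 (−0.80), a close relative of EGR1, and RHOB (−0.60), a small GTPase. RHOB was at 740, 843 and 770 FPKM in CON, 857, 856 and 872 in GA and 527, 509 and 515 in GB.

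With hormones alone 2 of the 35 tested genes of this list passed, which is 5.71% against 0.453% of all genes tested. These are named here because the count is small. CCN1, a matricellular protein listed under its older symbol CYR61, rose from 630, 585 and 629 FPKM in CON to 803, 809 and 783 in GA (log2FC 0.38, adjusted p = 0.00845, limma), and was at 900, 894 and 885 in GB. GEM fell (log2FC −0.27, adjusted p = 0.0411, limma), a call lost without any 1 of the 9 libraries. Library GC content as a covariate ended both calls, as it did for all genes tested in GA vs. CON. In GB vs. CON 12 of the 35 passed with it, against 11.7% of all genes. With the replicate block added 1 did, against 4.09%.

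Of the other bZIP proteins that can join AP-1 dimers, 20 of 22 could be tested, and 7 passed in GB vs. CON, 4 higher and 3 lower (median log2FC 0.090 against −0.016 for all genes), while GB vs. GA had 5, with 4 higher and 1 lower (median 0.044 against −0.075). These shares, 35% and 25%, were near those of all genes tested, 33.5% and 29.0%. BATF2, an interferon-induced partner of JUN proteins, was the largest change, from 0.44, 0.60 and 0.98 FPKM in CON and 0.73, 1.38 and 0.60 in GA to 32.1, 32.2 and 30.7 in GB (log2FC 4.56 in GB vs. GA, SE 0.22, adjusted p = 3.95e-07, limma). JDP2, a repressor that pairs with JUN, fell in GB vs. CON (log2FC −0.54), as did the small MAF protein MAFK (−0.34), and NFE2L2, a regulator of antioxidant genes, fell in GB vs. GA (−0.22). CEBPB was at 193.5, 176.7 and 186.8 FPKM in CON, 114.7, 94.2 and 95.2 in GA and 142.9, 109.2 and 167.9 in GB, and it passed in all 3 comparisons with an adjusted p of 0.0392 to 0.0424 (limma), a call lost in each of them under 10 or more of the 21 alternatives. With library GC content as a covariate 2 genes passed in GB vs. CON, or 1 with the replicate block added, against 11.7% and 4.09% of all genes tested. In GB vs. GA 3 genes passed without GA replicate 2 or without GB replicate 1.

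Upstream of these genes stand the MAP kinases, which phosphorylate JUN, ATF proteins and the ternary complex factors (ELK1, ELK3, ELK4) that drive FOS and EGR1. All 35 listed genes were tested. In GB vs. GA 13 passed, 3 higher and 10 lower (median log2FC −0.13 against −0.075 for all genes), and in GB vs. CON 12 passed, 3 higher and 9 lower (median −0.098 against −0.016). The shares were 37.1% against 29.0% of all genes in GB vs. GA and 34.3% against 33.5% in GB vs. CON, the latter near the background. The genes that rose were the p38 activator MAP2K6 (0.73 in GB vs. GA and 0.79 in GB vs. CON), ELK4 (0.33 and 0.40) and ELK1 (0.31 and 0.23). MAP2K6 was at 14.7, 13.9 and 14.4 FPKM in CON, 15.7, 14.98 and 14.5 in GA and 25.4, 24.5 and 25.9 in GB. Among those that fell were NRAS (−0.48 in GB vs. GA), MAPK12 (−0.45 in GB vs. CON) and RPS6KA2 (−0.49 in GB vs. CON). In GA vs. CON 0 of the 35 passed with limma, and 7 had an unadjusted p under 0.05. Library GC content as a covariate gave 2 genes in GB vs. CON and turned ELK1 to −0.010, and with the replicate block added 0 passed with limma and 3 had an unadjusted p under 0.05. The shares of all genes tested under these settings were 11.7% and 4.09%. The 13 of GB vs. GA became 8 with TPM, without GA replicate 1, GB replicate 1 or GB replicate 2, and 7 with median-of-ratios factors.

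The feedback inhibitors of these kinases include phosphatases of the DUSP family and the SPRY and SPRED proteins. The list used here also holds ERRFI1, NAB1 and NAB2, which belong to none of these families. NAB1 and NAB2 were among the genes that fell in both comparisons with GB, so the counts are not of those families alone. Of 18 tested genes 11 passed in GB vs. CON, 3 higher and 8 lower (median log2FC −0.18 against −0.016 for all genes), while GB vs. GA had 7, with 1 higher and 6 lower (median −0.17 against −0.075). The shares were 61.1% against 33.5% of all genes in GB vs. CON and 38.9% against 29.0% in GB vs. GA. DUSP10, which acts on JNK and p38, rose from 26.3, 27.0 and 26.9 FPKM in CON and 30.5, 31.9 and 31.5 in GA to 43.4, 47.7 and 47.0 in GB (log2FC 0.55 in GB vs. GA, adjusted p = 5.98e-05, limma). SPRY2 fell (−0.75 against CON and −0.56 against GA), as did SPRY4 (−0.50 in GB vs. CON) and SPRED3 (−0.50 and −0.43). With library GC content as a covariate 4 genes passed in GB vs. CON and with the replicate block added 1 did, against 11.7% and 4.09% of all genes tested. Further, 6 or 7 passed without CON replicate 1 (6), CON replicate 2 (7) or GB replicate 1 (7).

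**Figure D4:**
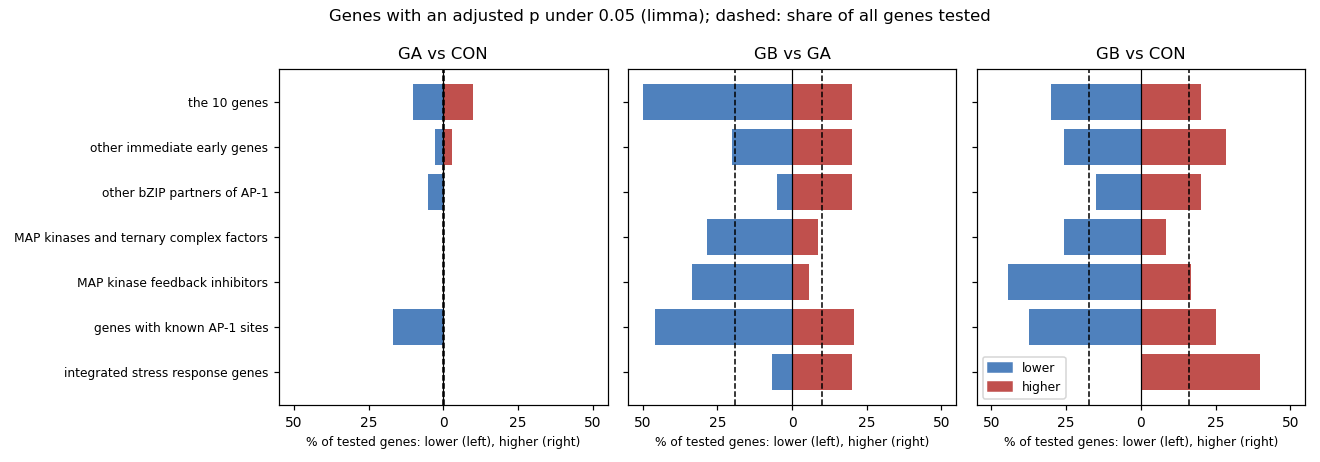
Share of the tested genes of each list (x axes, percent; lower to the left, higher to the right) with an adjusted p under 0.05 in GA vs. CON, GB vs. GA and GB vs. CON; dashed lines are the shares over all genes tested. The 10 genes show 50% lower and 20% higher in GB vs. GA, against 19.2% and 9.87% of all genes.

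Genes known to carry AP-1 sites were taken as a list of 27, of which 24 were tested. In GB vs. GA 16 passed, 5 higher and 11 lower, and in GB vs. CON 15 passed, 6 higher and 9 lower, with medians of −0.14 and −0.10 against −0.075 and −0.016 for all genes. The shares were 66.7% against 29.0% of all genes in GB vs. GA and 62.5% against 33.5% in GB vs. CON. With library GC content as a covariate 10 of the 24 passed in GB vs. CON, against 11.7% of all genes tested. With the replicate block added 6 did, against 4.09%. MMP3, a matrix metalloproteinase, was at 172, 168 and 185 FPKM in CON, 116, 131 and 132 in GA and 84.9, 85.2 and 85.9 in GB, and the 3 groups did not overlap. Its log2FC was −0.47 in GA vs. CON (adjusted p = 0.0154, limma), −0.56 in GB vs. GA (adjusted p = 0.000127, limma) and −1.03 in GB vs. CON (adjusted p = 1.42e-06, limma). MMP1 fell in the same 3 comparisons (−0.56 in GA vs. CON, −0.93 in GB vs. CON), VEGFA fell against GA (−0.56) and CON (−0.93), and the cytokine IL11 against GA (−0.68) and CON (−0.76). The largest rises were those of the cytokine genes IL6 (log2FC 1.25 in GB vs. GA) and CCL2 (1.06) and of the metallothionein MT2A (0.67), and IL6 was at 1.79 FPKM at most and listed at 0 in 1 CON and 1 GA library. The IL6 and CCL2 calls in GB vs. GA were lost under 8 of 20 and 6 of 21 alternatives.

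In GA vs. CON 4 of the 24 tested genes of this list passed, which is 16.7% against 0.453% of all genes tested. These are named because the count is small. They were MMP1, MMP3, PLAU and PLAUR, which act in the breakdown of matrix, and all of them fell. PLAU and PLAUR were named after their values were seen, as were CCN1, GEM, NR4A1 and ATF4 above or below. PLAU was at 167, 200 and 182 FPKM in CON, 120, 124 and 144 in GA and 101, 104 and 106 in GB, and PLAUR, its receptor, at 323, 373 and 346, then 279, 268 and 273, then 217, 214 and 234. Each of these 4 calls was lost in GA vs. CON under 6 to 15 of the 21 alternatives, among them library GC content as a covariate and leaving out CON replicate 1, and its direction was kept in all of them.

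**Figure D5:**
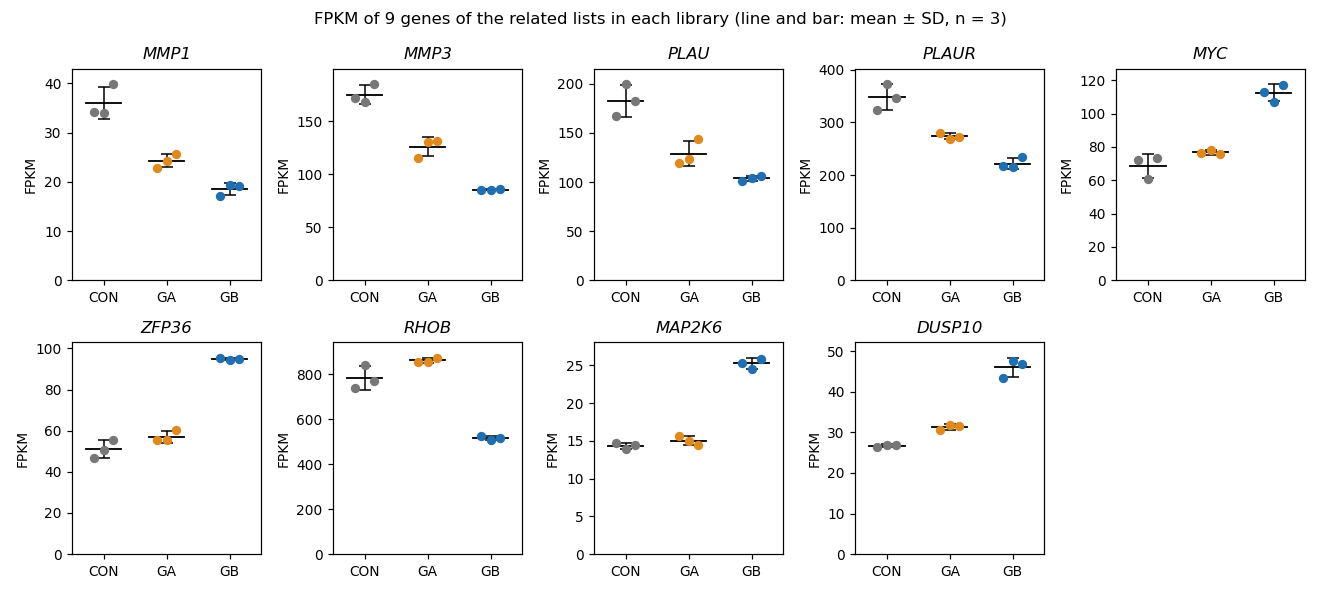
FPKM of 9 genes from the related lists (y axes, linear and starting at 0) in CON, GA and GB; points are libraries, and lines with bars are the mean ± SD of 3 libraries. MMP1, MMP3, PLAU and PLAUR step down from CON to GA to GB, while MYC, ZFP36, MAP2K6 and DUSP10 are highest and RHOB is lowest in GB.

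ATF3 is also a target of the integrated stress response, in which ATF4 raises genes of amino acid supply and redox balance. Of 15 tested genes of that response 6 passed in GB vs. CON, all higher (median log2FC 0.072 against −0.016 for all genes), while GB vs. GA had 4, with 3 higher and 1 lower (median 0.090 against −0.075). The shares, 40% and 26.7%, stood beside 33.5% and 29.0% of all genes. SESN2 rose most, from 16.5, 15.2 and 14.9 FPKM in CON and 14.4, 16.1 and 15.6 in GA to 29.6, 28.9 and 25.8 in GB (log2FC 0.85 in GB vs. GA, adjusted p = 3.62e-05, limma). ATF4 itself was at 307, 275 and 314 FPKM in CON, 322, 322 and 341 in GA and 328, 336 and 338 in GB, with a log2FC of 0.024 in GB vs. GA (adjusted p = 0.774, limma), and it rose in GB vs. CON (log2FC 0.16, adjusted p = 0.0425, limma). ASNS, an ATF4 target that makes asparagine, fell in GB vs. GA (−0.30). With library GC content as a covariate 2 genes passed in GB vs. CON, with the replicate block added 0 did with limma, where 2 had an unadjusted p under 0.05, and 3 passed without GB replicate 2. Under the GC settings 11.7% and 4.09% of all genes tested passed. ATF4, DDIT3 and PPP1R15A also stand in other lists.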

How the data were processed

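The members and gene lists were chosen with earlier results of these data known, so no list is independent evidence. Total RNA of 9 libraries was poly-T selected and sequenced in pairs. Per the labels and the methods, the authors trimmed reads with fastp 0.21.0, removed rRNA reads with Bowtie2, aligned the rest to ARS-UCD1.2 with HISAT2 2.2.1, obtained counts per gene with RSEM 1.3.3 and deposited FPKM per gene and library, which are the values used here; DESeq2 1.34.0 is named in the submitters' processing notes. No source used here names the annotation release or says whether counting used strand. The deposited identifiers of JUND and EGR1 name proteins of Bos indicus and Bubalus bubalis. Group means of log2(FPKM + 0.5) over the 9 libraries were fitted with limma 3.58.1 in R 4.3.3 (trend of the variance on mean expression), leaving out 4584 genes with a mean FPKM under 0.5, and p-values were adjusted by Benjamini-Hochberg over all genes tested. The procedure was tested on simulated data with independent noise for each gene and library. These data held no shift of GC content and no change smaller than the DEG threshold, so the test cannot speak to either. FPKM do not allow a count test, and their precision at a given depth is unknown. The named genes are the 10 members, of each list up to 3 genes a direction with the largest change among those that passed and whose libraries did not overlap, and the 3 genes most alike to each member. The 4 listed genes, CCN1, CCN2, MRTFA and MRTFB were matched through older symbols, and MMP10, IFIT1 and CD2 were not analysed here. Some further listed genes are not reported here and are left out of the counts. The alternatives are those given in the closing section. Figures were drawn with matplotlib 3.10.9.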

Additional observations from a re-analysis of the deposited data

How the results depend on the processing

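Results were recomputed with other pseudocounts (0.1 and 1), other filters (none, or an average of 1 FPKM), TPM scaling, quantile normalization, median-of-ratios factors, a constant prior variance, only the pair of groups at issue, a replicate block, library GC content as covariate, and with single libraries removed. GC content together with the replicate block was added after seeing the data. Of 630 values, 10 genes in 3 comparisons under 21 alternatives, 597 kept their direction or had no call to lose and kept their side of the threshold, 21 lost a call, 12 gained one, and 0 turned a call around. Of all genes tested, 0 passed in GA vs. CON with GC content, with or without the replicate block. In GA vs. CON the number of the 10 genes that passed went from 2 to 1 with no variance trend, to 0 with GC content (5 had an unadjusted p under 0.05 with limma), to 0 with GC content and the replicate block, and to 0 to 2 with single libraries left out. In GB vs. CON it went from 5 to 3 with GC content and the replicate block, with JUN, JUND and JUNB passing, against 4.09% of all genes tested. The number in GB vs. GA (7) stayed at 6 to 8 in every alternative. ELK1 in GB vs. CON turned to −0.010 with GC content and to −0.0047 with GC content and the replicate block. The cause of these changes was not tested. No scaling moved the median log2FC of all genes by as much as 0.1. The replicate numbers were not treated as pairs, since deviations of same-numbered libraries correlated at −0.031 to 0.077, against −0.068 to 0.057 for other libraries, and with the replicate block alone the counts of the 10 genes were 5, 7 and 2 in GB vs. CON, GB vs. GA and GA vs. CON, as without it. FPKM carry no depth, so the precision of FOSB, the only 1 of the 10 genes under 20 FPKM on average, cannot be stated beyond its spread between libraries.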

Other observations

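The second CON library was the lowest of its group for 8 of the 10 genes (FOS, FOSB, FOSL1, FOSL2, JUNB, JUND, ATF3 and IER3) and the highest for none, while it was the lowest for 47.2% and the highest for 26.9% of all genes tested. In GA the second library was the lowest for 6 of the 10 and the third the highest for 6, against 36.4% and 47.1% of all genes tested. The median coefficient of variation of the 10 genes within a group was 11.6% in CON, 6.19% in GA and 5.35% in GB, against 8.34%, 6.36% and 6.53% for all genes tested. FOSL2 varied least of the 10 in GA (0.823%) and GB (0.948%), and was at 9.98% in CON. FOSB varied most in CON (26.7%) and in GB (45.9%), where 1 library was at 0.75 FPKM and the other two at 2.02.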
